A study of Homo sapiens with 26 samples.

Results

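The comparison set 4 parental small cell lung cancer lines that express POU2F3 (NCI-H1048, NCI-H211, NCI-H526 and COR-L311) against 3 that express NEUROD1 (NCI-H446, NCI-H82 and NCI-H524), and it used 7 of the 14 parental libraries and of the 26 samples in all. The lines were chosen by the measured levels of these 2 transcription factors in the same libraries, so POU2F3 and NEUROD1 are described here without a test, and the labels themselves give no subtype. The parental cells were unedited and growing exponentially, NCI-H1048 in HITES medium and the other 6 lines in RPMI with 10% FBS or in HITES, and each line is 1 library. In the knockout experiment the 4 POU2F3 lines received, by lentivirus, a control guide RNA (sgNeg) or 1 of 2 guides against POU2F3 (sgPOU2F3, which the authors' tables give as 1 combined column per line), and were harvested on day 4 (NCI-H211 and NCI-H1048) or day 5 (COR-L311 and NCI-H526). The unit of replication is the line, so the errors measure the spread between different lines, and effects of the medium and of the line cannot be told apart.

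Small cell lung cancer is a fast-growing tumor of the lung that usually carries neuroendocrine features, meaning hormone-containing secretory granules and neuron-like genes. Its lines are sorted by the transcription factor that dominates them. POU2F3 is a POU-domain factor required for tuft cells, chemosensory epithelial cells that use taste receptor signaling and release acetylcholine, lipid mediators and cytokines. NEUROD1 is a basic helix-loop-helix factor of neurons and endocrine cells. Epithelial cells are held together by E-cadherin junctions and simple keratins, and the zinc finger factors ZEB1 and ZEB2 are known repressors of those genes.

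Levels are FPKM, fragments per kilobase of transcript, scaled to the mapped fragments of the library, so that levels of different genes can be compared per length. Values in the POU2F3 lines are listed with COR-L311 first, then NCI-H1048, NCI-H211, NCI-H526, and in the NEUROD1 lines in the order NCI-H446, NCI-H82, NCI-H524. POU2F3 stood at 332, 189, 221 and 387 FPKM against 0.0147, 0 and 0.0482, and in the 7 other parental lines it reached at most 0.608. NEUROD1 stood at 0.4, 0, 0 and 0.106 FPKM against 114, 135 and 289, and reached at most 3.12 in the other lines. No line came near the other group in either factor. Values near 0 weigh little on the log2(FPKM + 1) scale used below, so a difference on that scale is not a fold change where a group is at or near 0.

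YAP1, the factor of another proposed subtype, stood at 9.39 FPKM in NCI-H1048 and at or under 0.824 in the other 6 lines. Of 10 tuft markers (POU2F3, AVIL, TRPM5, RGS13, LRMP, BMX, GFI1B, ASCL2, ALOX5AP and PTGS1), 10, 7, 9 and 9 reached 1 FPKM in the POU2F3 lines, and 0, 0 and 2 in the NEUROD1 lines. POU2F3, which chose the lines, is 1 of the 10 and splits the groups by that choice. ALOX5AP was under 1 FPKM in NCI-H1048, NCI-H211 and NCI-H526, and NCI-H1048 also lacked TRPM5 and PTGS1. NCI-H524, a NEUROD1 line, held ALOX5AP and PTGS1. The estimated depth was lowest in COR-L311, at 9.55 M fragments (M, mega), and highest in NCI-H526 and NCI-H82, at 28.8 M. Of 16 blood cell genes 2 passed the filter on low values and their summed level was 2.52 to 6.14 FPKM in the POU2F3 lines against 4.32 to 7.07. The 14 fibroblast and endothelial genes summed to 3.31 to 89.0 FPKM against 10.2 to 195, and THY1, which neurons also express, alone passed the filter. NCI-H446 stood apart, with 7 of the 14 at 1 FPKM or more against 1 to 3 in the other 6 lines: THY1 at 92.9 FPKM, the endothelial cadherin CDH5 at 63.8, COL1A2 at 13.3, ACTA2 at 12.0, PDGFRB at 6.47, COL1A1 at 3.23 and COL3A1 at 2.04. PECAM1 was at most 0.575 FPKM and KDR was at 0 in all 7 lines. The part of such cells in the differences below was not tested.

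Between the groups, 73 genes were higher (0.590% of 12377 tested) and 35 were lower (0.283%) in the POU2F3 lines at a Benjamini-Hochberg adjusted p of 0.05 (limma on log2(FPKM + 1), for genes with at least 1 FPKM in at least 3 of the 7 libraries). The higher genes held tuft cell genes and epithelial keratins, junction proteins and their regulators, and the lower genes held neuronal growth, synaptic and transcription factor genes. LRMP, RGS13, C11orf53, AVIL and BMX had the largest differences upward, and STMN2, NPTX1 and RTN1 were among the largest downward. At an unadjusted p of 0.05, 1314 genes differed (10.6%). The levels of the groups did not overlap for 710 genes above (5.74%) and 572 below (4.62%), and with 4 lines against 3 an exact permutation test of a single gene cannot go below a two-sided p of 0.0571. The counts depended on single lines: without NCI-H1048 there were 111 higher genes, and without NCI-H82 there were 38 higher and 4 lower. Without NCI-H446 there were 11 lower genes and without NCI-H524 there were 10. Of the 35, 11 no longer passed the filter without any 1 NEUROD1 line, and 6, 3 and 9 stayed called without NCI-H446, NCI-H82 and NCI-H524, so the others were tested and lost their call. Of the 73 higher genes 30 passed without any 1 of the 7 lines, and of the 35 lower genes 2 did, STMN2 and RTN1.

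**Figure D1:**
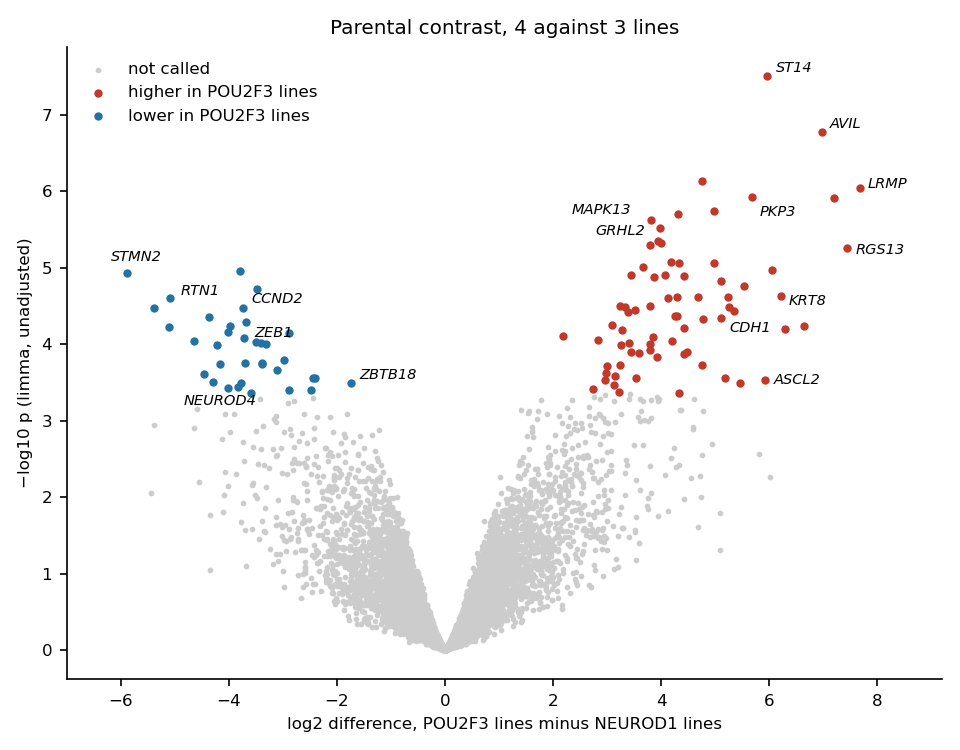
Difference between the 4 POU2F3 lines and the 3 NEUROD1 lines for each gene tested (x axis, log2(FPKM + 1), positive is higher in the POU2F3 lines) against the unadjusted limma p (y axis, −log10). Red points are the 73 genes called higher and blue points the 35 called lower, grey points passed no threshold, and POU2F3 and NEUROD1 are not drawn.

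**Figure D2:**
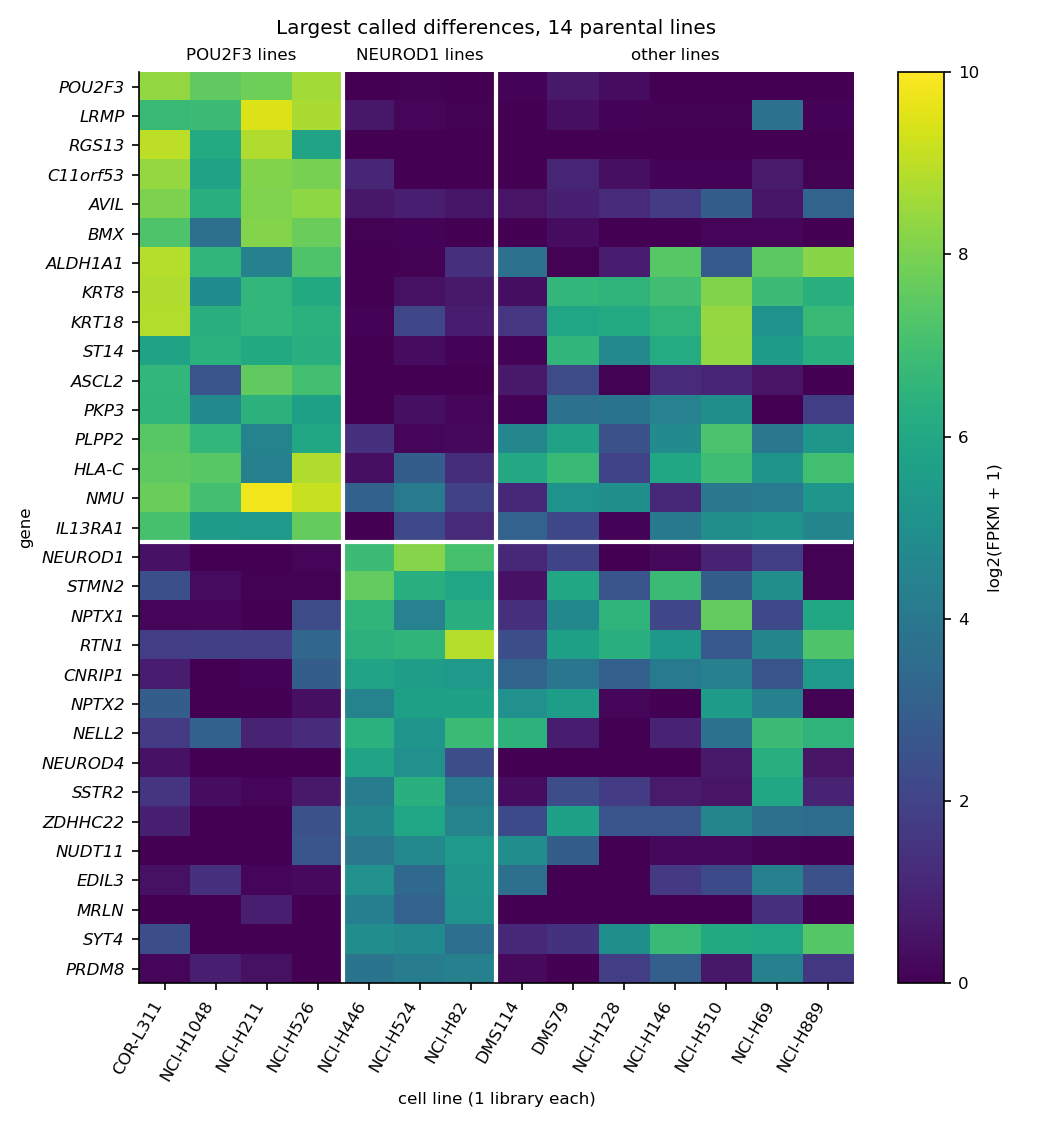
Level, log2(FPKM + 1), of POU2F3 with the 15 largest called differences upward and of NEUROD1 with 14 of the 15 largest downward (rows) in the 14 parental lines (columns, 1 library each). The upper genes are bright in the 4 POU2F3 lines and dark in the 3 NEUROD1 lines, and part of them, such as KRT8 and ST14, are bright in the other lines too.

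Some genes of each listed tuft class were higher in the POU2F3 lines, 4 of 22 regulators, 2 of 20 signaling genes, 3 of 15 kinases and adaptors and 3 of 19 cytoskeletal and surface genes, and 1 of 7 lipid mediator genes. Across 4 tuft lists 12 of the 76 genes that passed the filter were called higher (15.8%, against 0.590% of all genes), none lower, and the median difference was 2.71 on the log2 scale against 0.00 over all genes, with 11 of the 76 below 0. A gene near 0 in the NEUROD1 lines passed the filter through the POU2F3 lines alone, so these counts describe the genes that passed, out of 97 listed. Without NCI-H1048 the count was 19 of 66, and without NCI-H82 it was 7 of 75. In cultured lines, fewer cells with a transcript and less of it per cell cannot be told apart.

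Among the transcription regulators, C11orf53, a coactivator that partners POU2F3, stood at 341, 52.6, 273 and 248 FPKM against 1.10, 0 and 0. Its lowest POU2F3 line lay far above its highest NEUROD1 line, and the difference was 7.20 ± 0.64 (SE, log2(FPKM + 1) scale, limma adjusted p = 0.00189). GFI1B, a zinc finger repressor of blood and tuft cells, stood at 79.1, 27.2, 11.7 and 47.9 FPKM and was listed at 0 in all 3 NEUROD1 lines (difference 5.11 ± 0.61, adjusted p = 0.00646 by limma). ASCL2, a basic helix-loop-helix factor of intestinal stem cells, stood at 97.2, 4.98, 187 and 125 FPKM against 0, 0 and 0.0198. NCI-H1048 stood well under the other 3 lines for ASCL2, and its call (difference 5.92 ± 1.05, limma adjusted p = 0.0373) ended without any 1 of the other 6 lines, with adjusted p up to 0.150. RUNX1, a factor of blood and epithelial progenitors, was higher by 3.79 ± 0.50, between 8.82 and 28.8 FPKM against 0.0314 to 0.537 (limma adjusted p = 0.00980, and 0.0511 without NCI-H82). SOX9, a factor of ductal and progenitor epithelium, missed the threshold at an adjusted p of 0.0533 with 194, 113, 30.0 and 111 FPKM against 14.1, 0.106 and 2.44. The 18 other regulators that passed the filter, SOX9 among them, were not called.

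RGS13 and LRMP led the taste and calcium signaling genes. RGS13, which shuts off G protein signals, stood at 508, 69.1, 447 and 55.9 FPKM and was listed at 0 in the 3 NEUROD1 lines and in the 7 other lines. LRMP, a membrane protein that binds inositol trisphosphate receptors, stood at 108, 116, 711 and 419 FPKM against 0.554, 0.0510 and 0.0906. Both kept the call without any 1 line, with differences of 7.44 ± 0.79 for RGS13 (limma adjusted p = 0.00424) and 7.68 ± 0.66 for LRMP (limma adjusted p = 0.00185). The core of taste transduction varied within the POU2F3 lines instead. TRPM5, its cation channel, stood at 46.1, 0.0127, 110 and 48.0 FPKM against at most 0.0787, and GNAT3, its G protein alpha subunit gustducin, at 8.69, 6.39, 51.4 and 0.121 FPKM against 0, 0 and 0. NCI-H1048 thus lacked TRPM5 and NCI-H526 nearly lacked GNAT3, and neither gene was called (adjusted p = 0.254 for TRPM5 and 0.339 for GNAT3 by limma). The bitter receptor TAS2R38 was listed at 108 FPKM in NCI-H211 and at most 0.887 in any of the other 6 lines, and did not pass the filter. PLCG2, a phospholipase, stood at 61.8, 2.80, 82 and 57.1 FPKM against 0, 0.112 and 1.28, with a limma adjusted p of 0.0878. Of 20 genes of the list that passed the filter, 2 were called higher.

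Kinases and adaptors that tuft cells share with blood cells included 3 called genes of 15 that passed the filter. BMX, a TEC family kinase, stood at 151, 11.8, 283 and 207 FPKM against 0.0512, 0 and 0.0562. NCI-H1048 was again the lowest of the 4, and the call (difference 6.64 ± 0.95, limma adjusted p = 0.0132) ended without any 1 of the NEUROD1 lines, with adjusted p up to 0.0642. KIT, the stem cell factor receptor, stood at 73.6, 35.8, 19.5 and 138 FPKM against 0, 0.106 and 1.43 and kept its call without any 1 line (difference 5.25 ± 0.67, limma adjusted p = 0.00846). PTPN6, the phosphatase SHP-1, was higher by 3.16 ± 0.55 (10.9 to 21.9 FPKM against 0.0607 to 2.77, limma adjusted p = 0.0355), a call that ended without any 1 of COR-L311, NCI-H211, NCI-H526, NCI-H446 and NCI-H524 (adjusted p up to 0.137).

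The cytoskeletal and surface genes included AVIL, the actin-bundling protein advillin that marks tuft cells, at 258, 76.2, 270 and 310.5 FPKM against 0.569, 0.474 and 0.807. Its difference was 6.98 ± 0.50 with a limma adjusted p of 0.000512, and the call held without any 1 line. IL13RA1, a receptor chain for interleukins of the type 2 response, stood at 135, 45.0, 39.9 and 198 FPKM against 0.0208, 1.26 and 3.63 (difference 5.26 ± 0.70, limma adjusted p = 0.00980, and 0.0511 without NCI-H82). BSPRY, an epithelial adaptor protein, was higher by 3.33 ± 0.44 (limma adjusted p = 0.00980, and 0.0511 without NCI-H82). Of 19 genes that passed the filter these 3 were called. ANXA1, an annexin, had 10.3, 2498, 414 and 19.3 FPKM against at most 2.08, and was not called (limma adjusted p = 0.186), with NCI-H1048 far above the other POU2F3 lines. In the synthesis of lipid mediators, PLA2G4A, the cytosolic phospholipase that frees arachidonic acid, stood at 58.3, 49.4, 32.7 and 127.5 FPKM against 0.0778, 11.6 and 0.944. PLA2G4A passed barely (difference 4.33 ± 0.81, limma adjusted p = 0.0482) and kept the call only without NCI-H82, its highest NEUROD1 line. The enzymes behind it were uneven: PTGS1, cyclooxygenase 1, stood at 98.3, 0.131, 5.76 and 38.3 FPKM against 0.174, 0.857 and 5.89, and ALOX5, 5-lipoxygenase, at 32.9, 132, 2.44 and 24.1 FPKM against 0.109, 4.21 and 6.21, and neither was called.

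The epithelial genes had the largest share of calls among the 29 lists. Of 42 keratin, junction and epithelial surface genes 35 passed the filter, 14 of these were called higher (40.0%) and none lower, and all 35 differences were above 0 with a median of 2.97. In 23 of the 35 the lowest POU2F3 line lay above the highest NEUROD1 line, where 5.74% of all genes did so. Here too a gene near 0 in the NEUROD1 lines passed the filter through the POU2F3 lines alone, which partly fixes its direction. These counts therefore describe the genes that passed, out of 42 listed. The median level of the 42 genes, as log2(FPKM + 1), was 3.96, 3.79, 3.93 and 4.48 in the POU2F3 lines and 0.06, 0.33 and 0.98 in the NEUROD1 lines, so the 4 POU2F3 lines were alike in this respect. The count stayed between 10 and 14 when any 1 line was left out, and fell to 6 of 42 without the filter and to 9 of 35 in a fit on all 14 libraries.

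KRT8 and KRT18, which pair to form the filaments of simple epithelia, were high in COR-L311 and present in all POU2F3 lines. KRT8 stood at 446.2, 28.2, 96.9 and 66.0 FPKM against 0, 0.600 and 0.367 (difference 6.21 ± 0.79, limma adjusted p = 0.00846), and KRT18 at 457, 79.7, 96.7 and 83.7 FPKM against 0.0650, 0.705 and 3.33 (difference 6.06 ± 0.70, limma adjusted p = 0.00602). Both have near-identical processed pseudogenes, among which the counting may split reads. KRT7 was listed at 342 FPKM in NCI-H1048 and at most 1.21 in the other 6 lines. KRT19, another keratin of simple epithelia, was low in COR-L311 at 0.885 FPKM and stood at 12.8, 13.4 and 20.5 in the other 3 against at most 0.180, with no call (limma adjusted p = 0.159).

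ST14, the membrane serine protease matriptase, had the smallest p of all genes other than the 2 sorting factors. It stood at 53.9, 83.8, 65.5 and 75.2 FPKM against 0.0128, 0.0745 and 0.263, a tight group on each side (difference 5.97 ± 0.35, limma adjusted p = 0.000168). Its inhibitor SPINT1 was higher by 4.31 ± 0.41 (34.1 to 70.1 FPKM against 0.937 to 2.93), LSR of tricellular junctions by 4.76 ± 0.40 (39.2 to 75.9 against 0.836 to 2.45), and PKP3, a desmosomal plakophilin, by 5.68 ± 0.51 (25.5 to 96.0 against 0.0152 to 0.325), with limma adjusted p of 0.00242, 0.00182 and 0.00189. All 4 kept the call without any 1 line. The other called members, named after their values were seen, included CDH1, EPCAM, CLDN7, ESRP1, DSP, JUP and MARVELD2. CDH1, E-cadherin, stood at 25.1, 9.54, 61.5 and 90.6 FPKM against 0.00892, 0.0223 and 0.0494 (difference 5.11 ± 0.71, limma adjusted p = 0.0113, and 0.0544 without NCI-H82). EPCAM, a surface glycoprotein of epithelia, stood at 200, 109, 602 and 219 FPKM against 3.29, 0.893 and 31.0, so NCI-H524 kept some of it, and its call ended without any 1 of COR-L311, NCI-H211, NCI-H526, NCI-H446 and NCI-H82 (adjusted p up to 0.142, against 0.0360 with all lines).

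Regulators of the epithelial state moved in opposite directions. GRHL2, a grainyhead factor that activates junction genes, stood at 11.5, 18.6, 16.6 and 12.5 FPKM against 0.00788, 0 and 0.0130, with no overlap and little spread (difference 3.95 ± 0.41, limma adjusted p = 0.00416). ESRP1, an epithelial splicing regulator, stood at 27.0, 30.7, 30.9 and 52.6 FPKM against 0.0119, 0.218 and 2.56 (difference 4.42 ± 0.52, limma adjusted p = 0.00602), and its relative ESRP2 missed the threshold at 0.0504. ZEB1 stood at 0.134, 0.0592, 1.11 and 0.0640 FPKM against 24.9, 8.74 and 16.9, lower by 3.69 ± 0.52 (limma adjusted p = 0.0124, and up to 0.0669 without NCI-H446 or NCI-H524). ZEB2 stood at 0.0208, 3.62, 0 and 0.0492 FPKM against 12.0, 6.97 and 10.9 and did not pass (difference −2.84 ± 0.64, limma adjusted p = 0.0951), with NCI-H1048 as the highest POU2F3 line. ZEB1 was the only called gene of 26 mesenchymal and YAP pathway genes that passed the filter. VIM, vimentin, stood at 1.40, 305, 3.09 and 0.154 FPKM against 162, 4.62 and 19.2 and overlapped between groups.

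**Figure D3:**
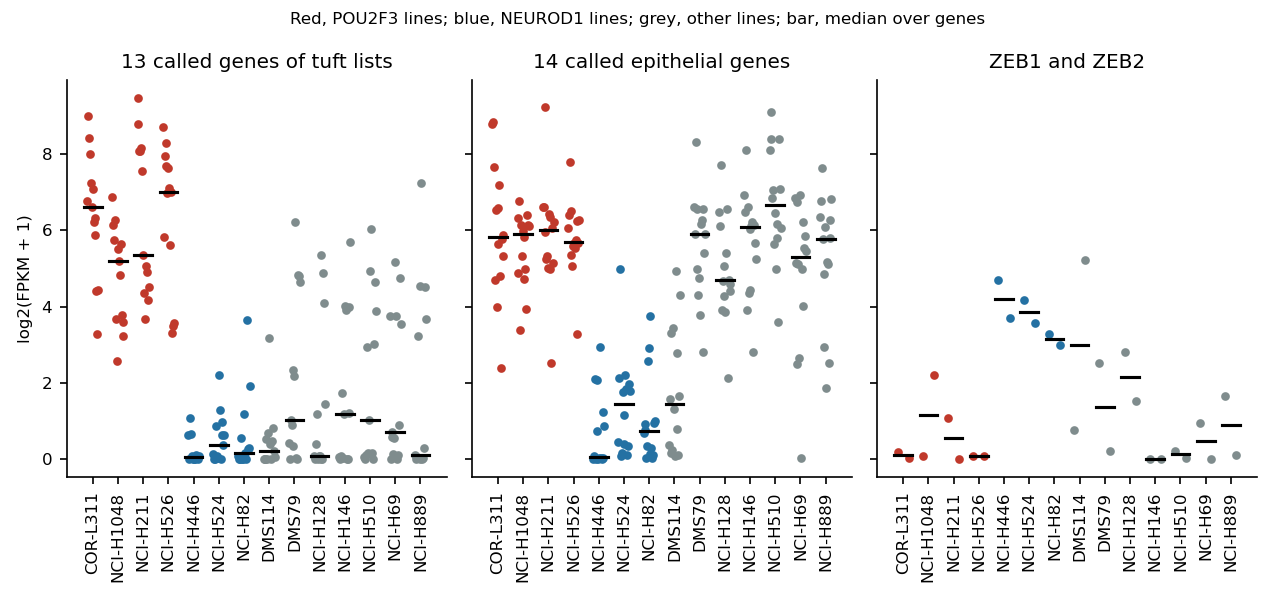
Level, log2(FPKM + 1), in each of the 14 parental lines of the 13 called genes of the tuft and lipid mediator lists (left), the 14 called epithelial genes (middle) and ZEB1 and ZEB2 (right); each point is a gene and each bar the median over genes. The medians of the tuft genes are high in the 4 POU2F3 lines, and those of the epithelial genes are low in the 3 NEUROD1 lines and DMS114.

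ZEB factors are known to bind the E-box CAGGTG, or CACCTG on the other strand, so the start regions of the called genes were read for it in the RefSeq annotation of GRCh38.p14, from 250 bases before to 50 bases after the first listed start, for the 78 of 108 called genes that matched by symbol. It was present in 23 of 54 higher genes (42.6%), in 7 of 24 lower genes (29.2%) and in 20.6% of all 27305 genes. For the motifs, all genes means these 27305 with a listed start, whether or not they passed the filter on low values. The share over the genes tested was not counted. Windows with 3 or more matches were 6 of 54 for the higher genes (11.1%) and 0.623% of all genes. Counted at any listed start, which was chosen after seeing the data, it was present in 29 of 54 higher genes (53.7%), 9 of 24 lower genes (37.5%) and 24.1% of all genes. For the 14 called members of the epithelial list the value turned on the choice of start: of the 7 that matched, 1 held it at the first start (14.3%) and 4 at any start (57.1%), CLDN7, DSP, JUP and SPINT1. The other 7, CDH1 among them, were not read. The octamer ATGCAAAT, the motif of POU2F factors, or its reverse complement, was present at the first start in 1 of 54 higher genes, ALDH1A1 (1.85%), against 1.80% of all genes, and at any start in 2 of 54 (3.70%), ALDH1A1 and BMX, against 2.19%. At the first start the E-box CAGATG, a motif of neurogenic factors, was present in 6 of 54 higher genes (11.1%), 3 of 24 lower genes (12.5%) and 14.8% of all. At any start CAGATG was present in 10 of 54 higher genes (18.5%), 7 of 24 lower genes (29.2%) and 17.5% of all, so its value also turned on the choice of start. These are matches of letters, given as a description, and none of the files measured binding.

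The 250 bases before the start are shown for CRB3, a polarity protein, AP1M2, a subunit of the clathrin adaptor that sorts proteins in epithelial cells, and MAPK13, the kinase p38 delta, as examples that held 3 or more E-boxes, and for BMX at the second of its 2 listed starts, since the octamer lay there and not at the first. Other higher genes, CLDN7 and PTPN6 among them, also held 3 or more, and ALDH1A1 held the octamer, and these are not shown. Capitals mark the E-box on either strand in the first 3 and the octamer in BMX, and each runs 5′ to 3′ on the strand of the gene. They cover chr19:6464021-6464270 (plus strand), chr19:10587313-10587562 (minus strand), chr6:36130263-36130512 (plus strand) and chrX:15507058-15507307 (plus strand) of GRCh38.p14. The E-boxes began 228, 208, 147, 89 and 60 bases before the start in CRB3, 57, 27 and 15 in AP1M2 and 179, 97 and 81 in MAPK13, and the octamer began 44 bases before the start in BMX.
CRB3: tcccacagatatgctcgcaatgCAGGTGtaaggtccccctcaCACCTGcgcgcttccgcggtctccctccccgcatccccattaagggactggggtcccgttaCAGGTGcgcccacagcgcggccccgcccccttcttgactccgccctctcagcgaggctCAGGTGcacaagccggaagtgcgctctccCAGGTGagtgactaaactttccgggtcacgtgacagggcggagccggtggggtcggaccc
AP1M2: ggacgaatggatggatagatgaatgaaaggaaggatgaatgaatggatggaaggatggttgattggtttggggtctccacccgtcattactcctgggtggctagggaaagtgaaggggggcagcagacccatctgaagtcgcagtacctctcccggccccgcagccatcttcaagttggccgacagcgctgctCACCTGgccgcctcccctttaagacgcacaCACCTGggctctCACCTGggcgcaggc
MAPK13: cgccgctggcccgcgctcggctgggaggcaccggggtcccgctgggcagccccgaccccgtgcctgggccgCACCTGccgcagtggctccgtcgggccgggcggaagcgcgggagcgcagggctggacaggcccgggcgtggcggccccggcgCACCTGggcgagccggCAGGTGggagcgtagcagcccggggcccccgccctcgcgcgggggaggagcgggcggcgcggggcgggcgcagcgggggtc
BMX: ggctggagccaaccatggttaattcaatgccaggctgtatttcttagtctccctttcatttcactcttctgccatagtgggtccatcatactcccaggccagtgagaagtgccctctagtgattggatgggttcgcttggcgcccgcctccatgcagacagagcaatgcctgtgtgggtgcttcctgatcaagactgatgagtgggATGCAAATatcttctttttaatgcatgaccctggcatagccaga
CRB3 stood at 14.7, 18.1, 15.4 and 12.4 FPKM against 0.175, 0 and 0.306 (difference 3.80 ± 0.40, limma adjusted p = 0.00417). AP1M2 stood at 60.3, 29.1, 19.8 and 43.6 FPKM against 0.0255, 0.298 and 0.126 (difference 4.98 ± 0.47, limma adjusted p = 0.00242), and MAPK13 at 24.3, 21.6, 28.9 and 21.1 FPKM against 0.721, 0.699 and 0.906 (difference 3.81 ± 0.37, limma adjusted p = 0.00264). All 3 kept the call without any 1 line, and were named after their values were seen.

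Receptors, ligands and survival genes were among the other higher genes. MET, the hepatocyte growth factor receptor, stood at 9.70, 26.7, 26.7 and 20.0 FPKM against 0.512, 0.0616 and 0.117 (difference 4.07 ± 0.48, limma adjusted p = 0.00602). ERBB3, a neuregulin receptor, was higher by 3.45 ± 0.41 (12.1 to 23.6 FPKM against 0.623 to 0.846, limma adjusted p = 0.00602), and with KIT these were the 3 higher of 22 receptor tyrosine kinase genes that passed the filter. DLL1, a Notch ligand, stood at 21.6, 14.5, 64.7 and 29.3 FPKM against 0.0510, 0.499 and 0.985 (difference 4.30 ± 0.55, limma adjusted p = 0.00846), the only call of 18 Notch genes. BCL2, the anti-apoptotic protein, stood at 12.7, 23.4, 59.2 and 46.6 FPKM against 1.84, 0.757 and 2.55 (difference 3.58 ± 0.57, limma adjusted p = 0.0211, and up to 0.101 without 1 of NCI-H526, NCI-H446, NCI-H82 and NCI-H524).

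Secreted and metabolic genes followed. NMU, a neuropeptide that activates type 2 innate lymphoid cells, stood at 207, 129, 871 and 571 FPKM against 7.59, 2.92 and 16.3 (difference 5.35 ± 0.72, limma adjusted p = 0.0102, and 0.0511 without NCI-H82). The lowest POU2F3 line, NCI-H1048, stood above the highest NEUROD1 line. ALDH1A1, which makes retinoic acid, stood at 472, 96.0, 20.1 and 150 FPKM against 0.0183, 1.58 and 0.0451 (difference 6.29 ± 0.91, limma adjusted p = 0.0136, and up to 0.0699 without NCI-H446 or NCI-H524). PLPP2, a lipid phosphatase, was higher by 5.54 ± 0.68 (21.3 to 168 FPKM against 0.0913 to 1.67, limma adjusted p = 0.00738).

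Antigen presentation genes differed unevenly. HLA-C, a class I heavy chain, stood at 183, 168, 20.0 and 449 FPKM against 0.343, 1.45 and 6.83 (difference 5.47 ± 0.98, limma adjusted p = 0.0395), and kept the call only without NCI-H211, with adjusted p up to 0.171 without another line. It was the only call of 17 genes that passed the filter, 16 of which had differences above 0 with a median of 1.26. HLA-B stood at 123, 252, 0.168 and 344 FPKM against 0.169, 0.539 and 2.01, so NCI-H211 lacked it, and reads of the class I genes can be shared between them. TAP1, the peptide transporter, stood at 38.8, 21.8, 5.12 and 45.0 FPKM against 0.0288, 0 and 2.93 with an adjusted p of 0.0723. Of 26 interferon and innate sensing genes ISG15 alone was called (50.9, 11.7, 76.1 and 38 FPKM against 2.90, 0 and 0.211, limma adjusted p = 0.0205, and up to 0.0989 without 1 of COR-L311, NCI-H526, NCI-H82 and NCI-H524).

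The genes lower in the POU2F3 lines included several with known roles in neurons. STMN2, a microtubule regulator of growing axons, stood at 4.39, 0.234, 0.0293 and 0.0442 FPKM against 191, 58.9 and 75.9 (difference −5.87 ± 0.69, limma adjusted p = 0.00602). RTN1, a reticulon of neuroendocrine endoplasmic reticulum, stood at 2.49, 2.77, 2.57 and 8.73 FPKM against 85.8, 475 and 93.1 (difference −5.09 ± 0.65, limma adjusted p = 0.00846). Both groups of lines were well apart for the pair, with COR-L311 as the highest POU2F3 line for STMN2 and NCI-H526 for RTN1. Of 26 neuronal cytoskeleton and adhesion genes these 2 were called.

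Among transcription factors, NEUROD4, a relative of NEUROD1, stood at 0.398, 0, 0 and 0.0159 FPKM against 55.9, 4.21 and 32.5 (difference −4.30 ± 0.77, limma adjusted p = 0.0395). Its call ended in each leave-one-out fit that tested it, with adjusted p up to 0.0979, and it was the only one of 17 neurogenic bHLH and partner genes that passed the filter to be called. PRDM8, a neural repressor, stood at 0.128, 0.792, 0.363 and 0 FPKM against 13.6, 20.1 and 17.3 (difference −3.79 ± 0.44, limma adjusted p = 0.00602). None of 34 neuroendocrine and neuronal transcription factors that passed the filter was called by limma (5 at an unadjusted p under 0.05), among them INSM1, a repressor of endocrine cells, at 79.0, 1.77, 4.55 and 98.4 FPKM against 155, 14 and 421.

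Synaptic and surface genes among the lower ones included the neuronal pentraxins NPTX1 (0.143, 0.0903, 0 and 3.88 FPKM against 93.2, 76.8 and 20.4, limma adjusted p = 0.0134) and NPTX2 (6.77, 0, 0 and 0.320 FPKM against 21.3, 52.0 and 50.5, limma adjusted p = 0.0330), which organise synapses. The NPTX1 call ended without NCI-H446 or NCI-H82 (adjusted p up to 0.0807 by limma), and NPTX2 kept its call only without COR-L311 (up to 0.171 without another line). SYT4, a synaptotagmin, stood at 4.31, 0, 0 and 0.0230 FPKM against 28.7, 11.6 and 26.2 (difference −3.83 ± 0.70, limma adjusted p = 0.0437) and was the only call of 31 synaptic vesicle genes that passed the filter, kept only without COR-L311 (adjusted p up to 0.184 without another line). SSTR2, the somatostatin receptor targeted in neuroendocrine tumor imaging, stood at 1.93, 0.274, 0.0856 and 0.593 FPKM against 17.7, 16.4 and 79.8 (difference −4.22 ± 0.65, limma adjusted p = 0.0174, and up to 0.0538 without 1 of NCI-H526, NCI-H82 and NCI-H524). CNRIP1, a cannabinoid receptor binding protein, NELL2, a secreted neural glycoprotein, and EDIL3, an integrin ligand, were lower by 4.65, 4.37 and 4.01. ZDHHC22, a palmitoyl transferase, NUDT11 and MRLN, a micropeptide of the sarcoplasmic reticulum, were lower by 4.16, 4.01 and 3.98. Each of these 6 calls ended without 1 or more of the lines. NUDT11 has a near-identical neighbor, NUDT10, with which reads may be shared.

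CCND2, cyclin D2, was listed at 0 in all 4 POU2F3 lines and stood at 10.1, 23.4 and 7.60 FPKM in the NEUROD1 lines (difference −3.73 ± 0.50, limma adjusted p = 0.00980), the only call of 24 cyclin and CDK inhibitor genes. Without any 1 of the 3 NEUROD1 lines CCND2 no longer passed the filter, and in the fits without a POU2F3 line it kept its call. CCND1, cyclin D1, stood at 18.7, 5.02, 150 and 22.3 FPKM against 0.620, 0.0726 and 48.9, and overlapped between groups. None of 32 cell cycle genes was called by limma (0 at an unadjusted p under 0.05), with a median difference of −0.23.

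The secretory neuroendocrine genes split the POU2F3 lines into pairs. CHGA, chromogranin A, stood at 50.4, 0, 0.299 and 73.5 FPKM against 136, 200 and 178, and CHGB at 98.5, 0.0580, 0.0241 and 43.7 FPKM against 79.4, 45.2 and 116. SYP, the synaptic vesicle protein synaptophysin, stood at 28.0, 0.806, 0.424 and 58.0 FPKM against 86.0, 185 and 165. SCG3 and PTPRN, both of dense-core granules, stood at 47.9, 0.0774, 0.0193 and 17.1 and at 46.2, 0.0141, 0 and 24.2 FPKM, against 51.1, 57.9 and 59.4 and against 26.2, 17.4 and 23.2. COR-L311 and NCI-H526 thus lay under every NEUROD1 line for CHGA, SYP and SCG3. For CHGB and PTPRN they lay near, within or above the range of the NEUROD1 lines. NCI-H1048 and NCI-H211 held almost none of these transcripts.

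The same division appeared in the median level of whole lists, on the log2(FPKM + 1) scale. For 19 granin and hormone processing genes the median was 3.63, 0.11, 0.03 and 3.59 against 4.30, 2.05 and 3.35, and for 33 synaptic vesicle genes it was 3.63, 0.34, 0.47 and 3.51 against 4.20, 3.20 and 3.49. For these genes the spread within the POU2F3 lines went with adjusted p of 0.313 for CHGA, 0.239 for SYP and 0.382 for SCG3, and none of 14 granin genes that passed the filter was called by limma (3 at an unadjusted p under 0.05), with a median difference of −1.51. The difference of the pairs was noticed in these data and was not tested. The 2 lines that held these genes were the shallowest and the deepest of the POU2F3 lines (9.55 M and 28.8 M).

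**Figure D4:**
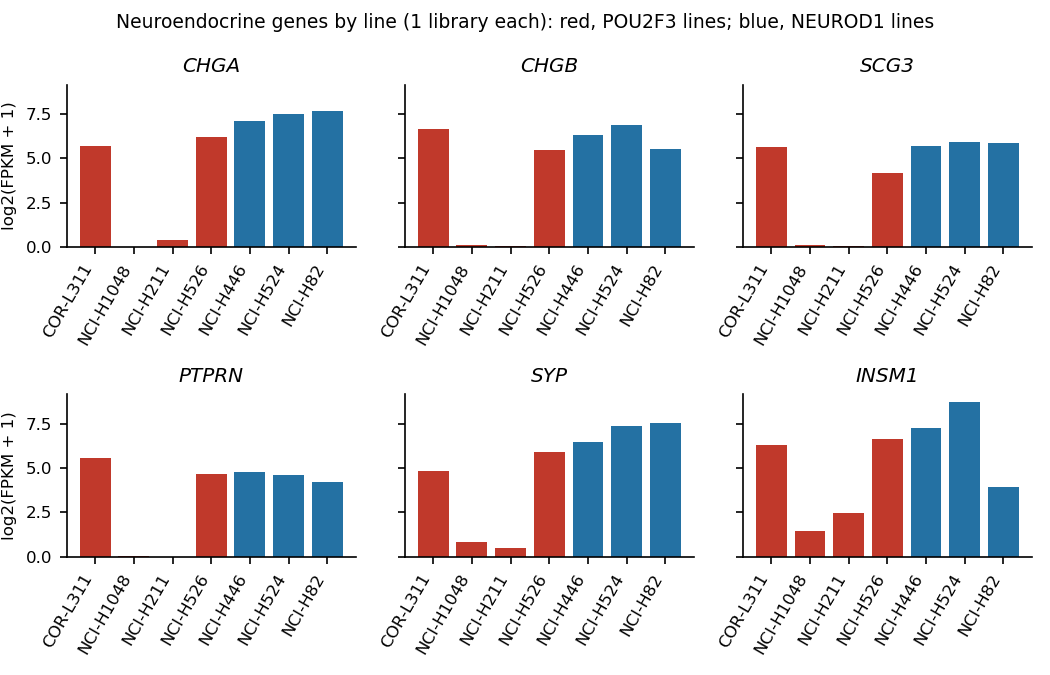
Level, log2(FPKM + 1), of 6 neuroendocrine genes in the 4 POU2F3 lines (red bars) and the 3 NEUROD1 lines (blue bars), 1 library each. For CHGA, CHGB, SCG3, PTPRN and SYP, NCI-H1048 and NCI-H211 are near 0, and COR-L311 and NCI-H526 stand well above them. COR-L311 and NCI-H526 lie under all 3 NEUROD1 lines for CHGA, SYP and SCG3.

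Other lists held no call, which at a background of 0.873% of all genes in either direction says nothing particular of them. None of 28 ion channel genes, 22 HOX genes, 20 Wnt genes, 13 MYC family and partner genes, 12 genes of the IGF axis and 6 ionocyte genes that passed the filter was called by limma at the adjusted threshold. At an unadjusted p under 0.05 the counts were 5, 3, 1, 0, 1 and 2, where 10.6% of all genes passed. MYC, the oncogene, was high in most lines of both groups, at 767, 109, 249 and 0.138 FPKM against 189, 925 and 958. NCI-H526 lacked MYC and held its relative MYCN at 694 FPKM, where the other 6 lines held at most 2.57.

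The 7 other parental lines placed these differences among lines of neither group, as a description of single libraries with no test. The counts below were made for the called genes alone, so no share over all genes tested stands beside them. Of the 73 higher genes 12 were not reached by any of the other lines at the level of the lowest POU2F3 line, and 9 of these were tuft or lipid mediator genes: AVIL, LRMP, C11orf53, RGS13, GFI1B, IL13RA1, BMX, ASCL2 and PLA2G4A. NMU, LGALS3, a galectin, and C6orf132 were the other 3. For the 14 called epithelial genes the count was 0, and 10 of the 14 were reached by 4 or more of the other lines. Of the 13 called tuft and lipid mediator genes 3 were reached by 4 or more. EPCAM, for example, had a median of 210 FPKM in the other lines, CDH1 14.1 and ST14 69.9. NCI-H510 reached 14 of the 14 epithelial genes and 3 of the 13 tuft and lipid mediator genes, and DMS114, which expresses YAP1, reached 1 and 0. Of the 35 lower genes, 10 were at the level of the lowest NEUROD1 line in none of the other lines, among them CCND2, at most 0.855 FPKM there, and ZEB1, at most 5.98. The median level of the 42 epithelial genes in the other lines, as log2(FPKM + 1), ran from 0.45 in DMS114 to 5.01 in NCI-H510. For the tuft cytoskeletal and surface genes it ran from 0.41 in DMS114 to 3.74 in NCI-H889, against 3.07 to 3.89 in the POU2F3 lines. For the tuft regulators it ran from 0.32 in DMS114 to 2.20 in DMS79, against 1.74 to 3.95. For the tuft signaling genes and the kinases and adaptors no other line reached the lowest POU2F3 line.

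A second set of libraries from the same 4 lines came from the control guide. In all 4 sgNeg columns each of the 73 higher genes stood above its highest NEUROD1 parental value, and each of the 35 lower genes stood below its lowest. The sgNeg columns were normalized in separate tables by the authors, so the levels are compared across tables only for this order. They come from the same lines as the parental libraries and do not add lines. The genes were called by a difference between these lines and the same NEUROD1 libraries, so this order adds no independent support. The share of all genes that kept their order was not counted.

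The knockout experiment gave the levels of the same genes with and without guides against POU2F3. In the fit across 12387 genes, with line and arm as terms, no gene passed as lower (0%) and 2 passed as higher, KRT19 and BMF (0.0161%), while 1456 had an unadjusted p under 0.05 (11.8%). POU2F3 transcript went from 307 to 21.3 FPKM in NCI-H211, 198 to 60.8 in NCI-H1048, 501 to 204 in NCI-H526 and 272 to 218 in COR-L311, where an edited transcript can still be counted. Of the 73 higher genes 0 passed the threshold, 20 had an unadjusted p under 0.05, and 18 were lower in 4 of 4 lines (24.7%, against 12.9% of all genes), while 1, GRB7, was higher in 4 of 4 (9.81% of all genes). Their median log2 ratio was −0.21 against −0.02 over all genes, and it was −0.12 without COR-L311, −0.14 without NCI-H211 and −0.33 without NCI-H1048.

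The groups of higher genes stood at different ratios. For the 13 called genes of the tuft and lipid mediator lists the median ratio was −1.43, with −2.69 in NCI-H211, −1.74 in NCI-H1048, −0.73 in NCI-H526 and −0.68 in COR-L311, and 9 of 13 were lower in all 4 lines. For the 14 epithelial genes it was 0.07, and 0 of 14 were lower in all 4 lines. The 46 genes in neither group had a median of −0.22, with 9 lower in all 4 lines. The difference between these groups was not tested.

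Single genes showed the spread. For RGS13 the log2 ratio averaged −2.77 ± 1.2 (SD over 4 lines, limma adjusted p = 0.312), AVIL −2.25 ± 1.36 (limma adjusted p = 0.368), LRMP −2.03 ± 1.26 (limma adjusted p = 0.375), PLA2G4A −1.77 ± 0.81 (limma adjusted p = 0.312) and BMX −1.64 ± 0.83 (limma adjusted p = 0.312), each lower in 4 of 4 lines. C11orf53 had −1.63 ± 1.55, GFI1B −1.43 ± 0.86 and IL13RA1 −1.15 ± 0.63, also lower in 4 of 4. KIT had −0.61 ± 1.11, and RUNX1 0.14 ± 0.70. Of the epithelial genes EPCAM had −0.07 ± 0.10, ST14 −0.08 ± 0.53, CDH1 0.64 ± 0.87 and KRT8 0.96 ± 1.21, and none of these passed the limma threshold.

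The genes lower in the POU2F3 lines were mostly too low for the knockout fit, which 11 of the 35 entered. Those 11 had a median ratio of 0.27 (0.10 without COR-L311, 0.44 without NCI-H526 and 0.51 without NCI-H1048), none was lower in all 4 lines and 2 were higher in all 4, DACH1, a neural and retinal cofactor, and NELL2. Counted by size over all 35, a log2 ratio of at least 1 was seen for 18 genes in COR-L311, where 2.73% of all 19128 genes in the table moved so far. The counts were 4 in NCI-H211 (4.42% of all genes), 2 in NCI-H526 (1.34%) and 1 in NCI-H1048 (0.779%). In COR-L311 SSTR2 went from 3.40 to 36.3 FPKM, MRLN from 0 to 12.9 and DACH1 from 1.03 to 16.1. The sgNeg columns of all 4 lines were shallower (9.55 M to 15.1 M fragments) than the sgPOU2F3 columns (18.2 M to 28.8 M). In COR-L311 they held 10.5 M and 21.9 M, and genes at 0 were 21.3% and 15.9%. The part of depth in these ratios was not tested, and the line has 1 column per arm.

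**Figure D5:**
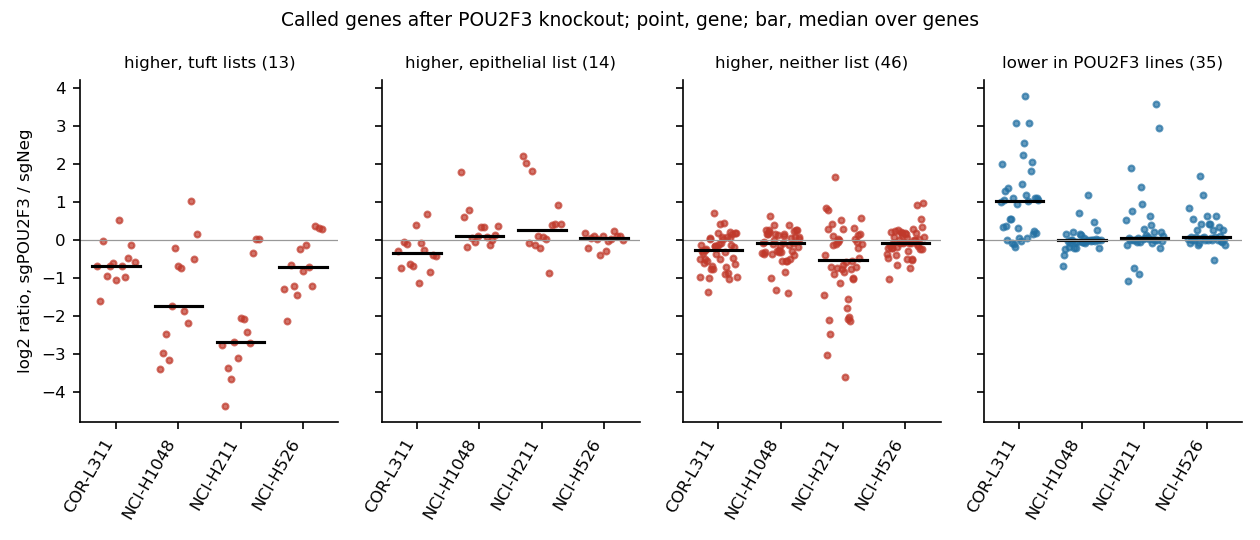
Log2 ratio of sgPOU2F3 to sgNeg (y axis) in each of the 4 lines for the 13 tuft and lipid mediator genes, the 14 epithelial genes, the 46 other higher genes and the 35 lower genes; points are genes and bars are medians over genes. The medians of the tuft genes lie below 0 in all lines, those of the epithelial genes stay near 0, and the lower genes have their highest median in COR-L311.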

How the data were processed

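RNA-seq of 14 parental lines and of 4 knockout lines was read from tables of FPKM values, which the authors deposited per gene; the submitters' processing notes name TopHat2, Cufflinks, Cuffdiff and hg19, with no versions or roles, and the labels call the parental values RPKM. The polyA library kit does not mark strand, so overlapping and antisense genes cannot be told apart, and how reads of near-identical genes were assigned is not given in the sources used here.

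The 7 libraries were compared with limma 3.58.1 (R 4.3.3, with a variance trend) on log2(FPKM + 1). Genes with FPKM of at least 1 in at least 3 libraries were used, with Benjamini-Hochberg adjustment over the 12379 fitted. POU2F3 and NEUROD1 were in this fit and are left out of the 12377 counted. Their small p, fixed by the choice of lines, can lower the adjusted p of other genes, ST14 among them. The knockout fit used line and arm over 8 columns, for genes with FPKM of at least 1 in at least 4 columns. The fits were tested on simulated data. Each line is 1 library, so p-values measure the spread between lines. Depth was estimated from the steps between low FPKM values of 1658 single-transcript genes in the parental table and 1662 in the knockout tables. It ran from 9.55 M to 31.6 M fragments over the parental libraries, and low values are the least precise in the shallow ones. Alternatives were other pseudocounts, filters, scalings and fits, and leaving out each line.

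The lines, members and 29 gene lists were chosen with earlier results of these data known. Genes were named as the 15 largest called differences in each direction, up to 4 genes of smallest p in each list, every called list member where 6 or fewer were called, and the factors that name subtypes. Outside this rule, after their values were seen, the text names TRPM5, ALOX5AP, GNAT3, TAS2R38, ANXA1, KRT7, KRT19, CDH1, EPCAM, CLDN7, ESRP1, ESRP2, DSP, JUP, MARVELD2, VIM, CRB3, AP1M2, MAPK13, HLA-B, INSM1, CCND1, PTPRN, MYCN, PECAM1, KDR, CDH5, COL1A1, COL1A2, COL3A1, ACTA2, PDGFRB, LGALS3, C6orf132, GRB7, BMF and DACH1. Start regions came from RefSeq (GRCh38.p14). No protein sequences were used here, and the results of some genes are not reported here.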

Additional observations from a re-analysis of the deposited data

Results flagged for a closer look

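In 23 of 126 parental levels and 7 of 98 knockout ratios examined over the 4 POU2F3 lines, 1 line stood apart: its gap to the nearest of the other 3 took up more of the range than Dixon's test allows at the 95% level. Chance gives about 1 in 20 for independent values with a normal spread, whereas many genes here were picked by their levels. Where the other 3 lines lie at or near 0, a low value stands apart by itself. BHLHE22 (0.0370 FPKM) and NEUROD4 (0.398 FPKM) are such cases. The counts are therefore not read against that rate. The parental levels are log2(FPKM + 1), and those reported here follow.

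In COR-L311 the line apart was the highest for KRT18 (8.84), CACNA2D1 (4.58), NPTX2 (2.96), STMN2 (2.43), SYT4 (2.41) and NEUROD4 (0.48), and the lowest for LSR (5.33). Most of these are neuronal genes, which the other 3 lines held at lower levels. In NCI-H526 the level was the highest for SEZ6L (4.20), GRIK3 (3.37), RTN1 (3.28), NUDT11 (2.64) and NPTX1 (2.29). In NCI-H1048 it was the lowest for AVIL (6.27) and PLCG2 (1.93) and the highest for ZEB2 (2.21). In NCI-H211 it was the highest for PROX1 (5.33), ZEB1 (1.08), HEY2 (0.97), MRLN (0.85) and BHLHE22 (0.052), and the lowest for PSMB8 (2.59).

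Of the knockout log2 ratios, NCI-H211 stood apart for 6 genes: ASCL2 (−3.09) and ALDH1A1 (−1.46) below the other lines, and AJUBA (4.33), LGR4 (2.26), IRS1 (1.71) and HLA-C (0.85) above them. COR-L311 stood apart for ZDHHC22 (1.02). NCI-H211 was also the line with the largest fall of POU2F3, and the part of this in its ratios was not tested.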

How the results depend on the processing

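The count of 73 higher genes became 21 without a filter on low values and 42 in a fit on all 14 parental libraries in 3 groups, and ran from 38 (without NCI-H82) to 111 (without NCI-H1048) when 1 line was left out. The count of 35 lower genes became 21 with a pseudocount of 0.1, 4 without a filter, 23 with a filter at FPKM 5 and 22 in the fit on 14 libraries, and ran from 4 (without NCI-H82) to 34 (without NCI-H1048), with 11 without NCI-H446 and 10 without NCI-H524. Apart from the filter, which removes 11 lower genes when a NEUROD1 line is left out, the cause was not tested. No gene called in the parental comparison changed sign in a fit that tested it. Among named genes that were not called, signs turned for CD14 without NCI-H82 (−0.19), CD68 without NCI-H446 (0.10) and THY1 without NCI-H211 (0.56) or NCI-H446 (0.10). Over the named genes, called and not called together, 1445 alternative values kept that status and their direction, 159 lost the call and 32 gained it. The 1445 thus include genes that stayed uncalled. Of the called genes, 21 of 73 higher and 3 of 35 lower stayed called without the filter. In the knockout, 1 higher gene, KRT19, was called when the set was taken at an unadjusted p of 0.01 (297 genes); the median ratios kept their sign under each alternative run. No paired analysis was possible because the parental groups are different lines with no shared replicate numbers. With 4 and 3 lines and the depths given, small differences and those of low genes could not be resolved.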
